A study of Mus musculus with 12 samples.

Results

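The genes described here serve protein folding in the endoplasmic reticulum (ER), the unfolded protein response that adjusts this capacity, and ER-associated degradation (ERAD), which removes proteins that fail to fold. They were a named list of 36 genes, found among the 55604 genes of the count tables by matching Ensembl identifiers to mouse symbols, and comprised 11 chaperones and cochaperones, 8 foldases, 4 sensors and transcription factors, 7 ERAD genes and 6 genes of the translocon and signal peptidase. All 36 passed the filter on low counts and were tested. Calr, Canx and Pdia3 were not in the list. RNA came from macrophages grown from C57BL/6 mouse bone marrow in the growth factor M-CSF (20 ng/ml) and used at day 7. The 3 groups of 4 libraries were untreated macrophages (macrophages alone), macrophages that had engulfed control corpses of B16-F10, a mouse melanoma cell line, and macrophages that had engulfed corpses of the STC1OE form of that line, which overexpresses the secreted glycoprotein STC1. The ratio for loading was given as 1 to 5, culture lasted 20 hours, and corpses that had not bound were then washed off. The series' design text gives 4 independent experiments per condition. The way the corpses were prepared and whether STC1OE cells were 1 clone are not given in the sources used here.

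Secreted and membrane proteins enter the ER through the SEC61 channel and are folded there by chaperones such as BiP, the product of Hspa5, and by disulphide isomerases. When unfolded proteins accumulate, BiP leaves the sensors IRE1 (Ern1), PERK (Eif2ak3) and ATF6 (Atf6). IRE1 splices the Xbp1 mRNA, ATF6 is cleaved to a transcription factor, both raise transcription of chaperone and ERAD genes, and PERK slows translation while favouring that of ATF4. Macrophages that take up dying cells must degrade the cargo and make secreted and lysosomal proteins, most of which pass through the ER.

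Libraries held 28488441 to 39981074 counts assigned to genes, and the members' counts summed over the 4 libraries of a group ran from 1923 (Ppib) to 180355 (Hspa5), with 409 the lowest count of a member in any library. Levels are CPM, read counts scaled to the size of each library with TMM factors. A gene is called when the adjusted p-value of edgeR's quasi-likelihood test with Benjamini-Hochberg adjustment over 16406 genes is below 0.05. The common biological coefficient of variation was 4.53%, so differences well under 1.5-fold were called. The label was checked against 8 macrophage markers, which summed to 15560 to 16440 CPM in macrophages alone, 13210 to 14890 with control corpses and 13090 to 14220 with STC1OE corpses. Most of this sum was Lyz2 (11190 CPM in macrophages alone), and in each comparison with macrophages alone 3 of the 8 were called higher (Cd68, Mertk and Fcgr1) and 5 lower, Cd14 most, by 1.27 and 1.40 on the log2 scale. Of 12 melanocyte markers, the 11 below 1 CPM in macrophages alone summed to 0.234 to 0.622 CPM there, with 3 of them at 0, to 10.3 to 13.5 CPM with control corpses, with none at 0, and to 3.31 to 4.77 CPM with STC1OE corpses, with 1 at 0. Mitf, the remaining marker, went the other way. It was at 164.7 CPM in macrophages alone, 109.5 with control corpses and 109.1 with STC1OE corpses, log2 fold changes of −0.59 in both. These marker levels moved with the groups, and their part in the results below was not tested. Markers of B and plasma cells, which are rich in ER, summed to 75.5 to 78.4, 76.0 to 82.2 and 79.1 to 83.9 CPM in the same order, mostly from Sdc1, which rose from 61.9 to 74.3 and 77.4 CPM. Ighm of the same list fell from 12.5 to 2.548 and 2.501 CPM (log2 fold changes −2.30 and −2.32, adjusted p = 4.19e-18 and 3.79e-18, edgeR), and Jchain and Mzb1 were at or near 0. Of the 4 tested genes of this list, 1 rose and 1 fell with control corpses and 1 rose and 2 fell with STC1OE corpses. Neutrophil markers summed to 14.2 to 16.1, 3.58 to 5.01 and 4.01 to 4.91 CPM and fibroblast markers to 17.8 to 23.9, 12.5 to 17.0 and 13.9 to 15.2 CPM. The part of these markers in the results was not tested either. For some members both of replicates 1 and 2 lay on the same side of both of replicates 3 and 4. In macrophages alone the first pair lay above the second for 9 members and below for 9. With control corpses it lay above for 7 and below for 5, and with STC1OE corpses above for 2 and below for 10. With 4 libraries some such splits arise by chance, and their share over all genes was not computed. Results that rest on these pairs are therefore given for each pair. In bulk RNA, fewer cells of a type and less RNA per cell cannot be told apart.

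Several members carry in their promoters the short elements through which ATF6 and XBP1 are known to act, and these are shown because some members share them. The list was chosen by pathway and with earlier results of these data known, so the shares of members below are a description and not a test. RefSeq promoter windows of GRCm38.p6, from 250 bases before to 50 bases after the annotated start, were found for 30 of the 36 members. Hyou1, Derl1, Sec61a1, Atf6, Sec11c and Manf had no window. Both strands were searched for the ER stress response element (ERSE), which is CCAAT, then 9 bases of any kind, then CCACG, and in which the CCAAT box is the site of the factor NF-Y. It was found in 6 of 30 members (20.0%) and in 37 of all 27025 genes with a window (0.137%). With 1 mismatch allowed in the fixed letters it was found in 12 of 30 members (40.0%) and in 1.72% of all genes. The exact elements are printed 5′ to 3′ on the sense strand of the gene, with the fixed letters in capitals and 5 flanking bases on each side. Distances are counted from the RefSeq start, which can differ from the gene start in GENCODE, the annotation whose gene coordinates are given here. CGTGG and ATTGG are the same boxes read from the opposite strand.
Hspa5, 65 bases before the start: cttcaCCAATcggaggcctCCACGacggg
Pdia6, 98 bases before: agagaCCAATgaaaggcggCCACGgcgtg
Dnajc3, 105 bases before: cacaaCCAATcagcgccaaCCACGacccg
Syvn1, 44 bases before: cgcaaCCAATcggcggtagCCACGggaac
Hsp90b1, 212 bases before: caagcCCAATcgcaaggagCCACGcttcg
Hsp90b1, 107 bases before: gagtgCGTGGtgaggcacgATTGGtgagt
Creld2, 126 bases before: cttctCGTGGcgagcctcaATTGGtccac
The 9 bases between the boxes differed from element to element. On GRCm38.p6 the Hspa5 element lies at chr2:34772025-34772043 on the plus strand, that of Pdia6 at chr12:17266491-17266509 and that of Syvn1 at chr19:6046532-6046550. The Hspa5 element lies inside the gene by its GENCODE coordinates.

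Hsp90b1 had 2 elements, in opposite directions. The GENCODE start of this gene lies before the RefSeq start from which the distances above are counted. Its sequence upstream of the GENCODE start is shown because both elements and other ATTGG boxes lie close together in it (chr10:86705510-86705694, minus strand, 185 bases, elements in capitals).
Hsp90b1: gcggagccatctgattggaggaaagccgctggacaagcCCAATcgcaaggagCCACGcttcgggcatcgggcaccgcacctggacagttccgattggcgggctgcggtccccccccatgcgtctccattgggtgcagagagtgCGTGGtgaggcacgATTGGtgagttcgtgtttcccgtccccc
The upstream window of Creld2 (chr15:88819396-88819645, plus strand, 250 bases) held 1 element, reversed.
Creld2: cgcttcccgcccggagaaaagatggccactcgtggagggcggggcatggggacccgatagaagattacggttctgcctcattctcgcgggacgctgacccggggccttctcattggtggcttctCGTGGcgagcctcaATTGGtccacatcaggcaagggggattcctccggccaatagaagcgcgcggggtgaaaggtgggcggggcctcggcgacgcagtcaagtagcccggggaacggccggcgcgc
The shorter ERSE-II, which is ATTGG, then 1 base of any kind, then CCACG, was found in Dnajb11 and Herpud1, or 6.67% of members against 0.0444% of all genes. The XBP1 element written TGACGTGG was found in Txndc11 and Txndc5, also 6.67% of members, against 0.714% of all genes.
Dnajb11, 7 bases after the start: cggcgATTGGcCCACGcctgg
Herpud1, 52 bases before: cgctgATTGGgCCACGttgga
Txndc11, 102 bases before: gtggcTGACGTGGagagt
Txndc5, 138 bases before: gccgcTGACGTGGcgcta
By GENCODE coordinates the Txndc11 and Txndc5 elements lie inside their genes. ERSE-II shares its boxes with ERSE, and the window of Herpud1 also held an ERSE with 1 mismatch. The cAMP response element TGACGTCA was in none of the 30 windows and in 2.03% of all genes. A match of letters is a description of the window and was not tested as a binding site.

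Engulfment of corpses of either kind went with higher mRNA of most ER folding and translocon genes. With control corpses, 30 of 36 members rose and 2 fell, where 40.1% of all tested genes were called, 19.7% higher and 20.5% lower. With STC1OE corpses, 30 rose and 2 fell, against 43.8% of all genes, 21.4% higher and 22.4% lower. The median member log2 fold change was 0.47 and 0.50, and over all tested genes it was −0.001 and −0.03. Both comparisons use the same macrophages alone, so the second is no independent repeat of the first. The members were chosen with earlier results of these data known, so their shares beside those of all genes are a description and not a test. All 4 libraries lay above those of macrophages alone for 29 members with control corpses (18.3% of all genes) and for 30 with STC1OE corpses (19.7%), and below for 2 in each (18.9% and 20.2%). The fitted difference was over 1.5-fold for 11 members with control corpses (8.83% of all genes) and 12 with STC1OE corpses (10.8%). Against a threshold of 1.2-fold in place of any difference (edgeR's glmTreat), 21 members were called with control corpses, where 10.3% of all genes were, and 24 with STC1OE corpses, where 12.9% were.

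**Figure D1:**
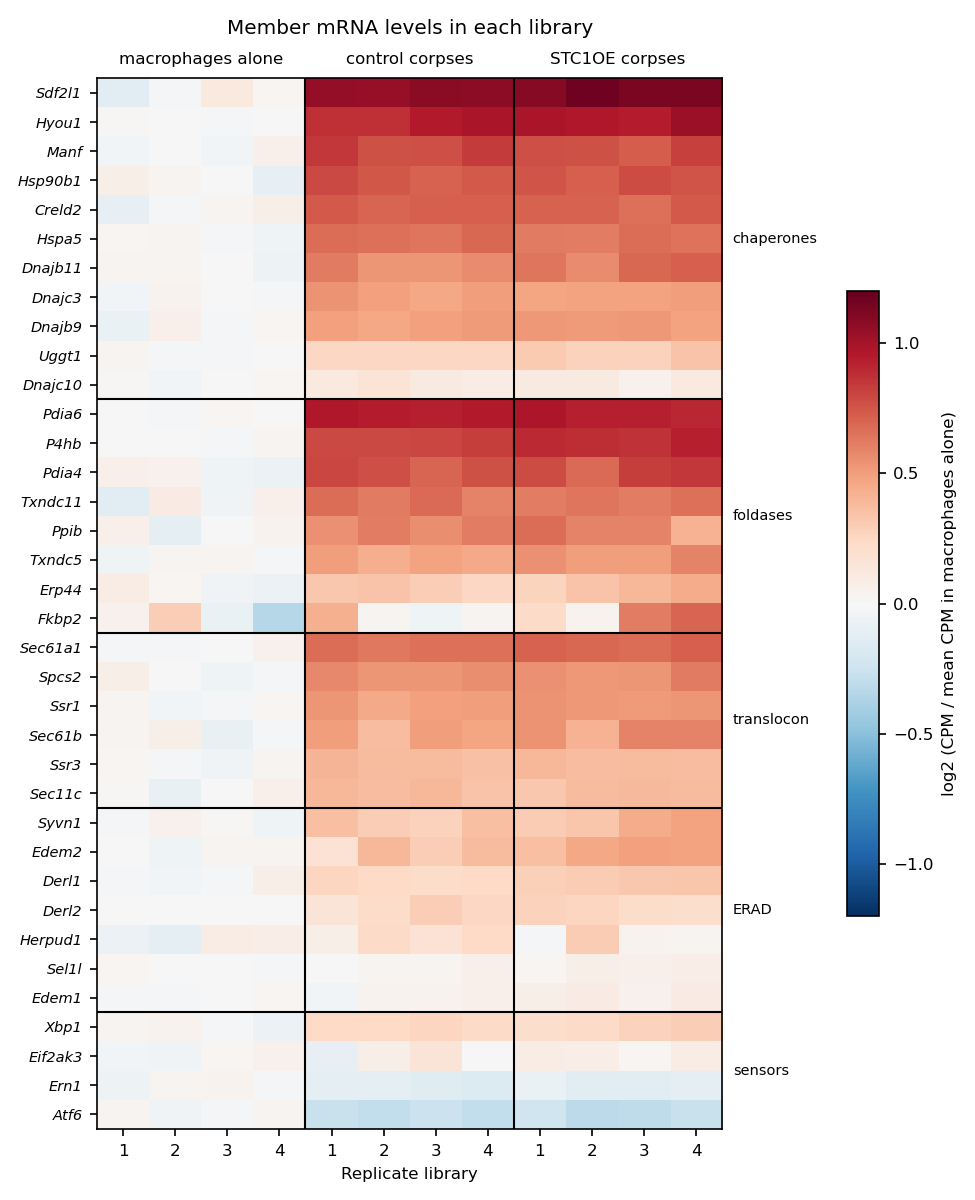
Colour gives the log2 ratio of each library's CPM to the mean CPM of macrophages alone, with the 36 members as rows by role and the 12 libraries as columns. Chaperones, foldases and translocon genes are red in nearly all corpse libraries, the Fkbp2 row is uneven among libraries of a group, and Ern1 and Atf6 at the bottom are blue in all 8 corpse libraries.

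The summed level of the 36 genes was 4732 ± 33.7 CPM in macrophages alone, 6803 ± 48.0 with control corpses and 6930 ± 80.6 with STC1OE corpses (SD, n = 4). The 4 libraries of each corpse group, at 6763 to 6863 and 6846 to 7036 CPM, lay above the 4700 to 4770 CPM of macrophages alone. The groups of roles did not share equally in this. Chaperones summed to 1.59 and 1.60 times their level in macrophages alone with control and STC1OE corpses, foldases to 1.69 and 1.76 times, translocon genes to 1.41 and 1.43 times, ERAD genes to 1.09 and 1.12 times and sensors to 0.946 and 0.952 times. Whether the role groups differ from each other was not tested.

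All chaperones rose: 11 of 11 were called higher with each kind of corpse, with log2 fold changes of 0.12 to 1.06 for control and 0.10 to 1.13 for STC1OE corpses and medians of 0.66 in both. Sdf2l1, a partner of the BiP cochaperone Dnajb11 (gene on chromosome 16, 17130138 to 17132383, GRCm38), was at 54.2, 58.0, 64.2 and 60.0 CPM in macrophages alone, 123, 122, 125 and 124 with control corpses, and 126, 133, 130 and 129 with STC1OE corpses. It was the 1 member above 2-fold in both comparisons, with log2 fold changes of 1.06 ± 0.03 and 1.13 ± 0.03 (SE; adjusted p = 1.88e-20 and 3.37e-21, edgeR's quasi-likelihood test with Benjamini-Hochberg adjustment), and its highest library without corpses was far below the lowest with them.

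Hyou1, a large chaperone that exchanges nucleotide on BiP, was at 273, 269, 268 and 271 CPM in macrophages alone, 496, 497, 524 and 534 with control corpses and 535, 526, 519 and 549 with STC1OE corpses. Its log2 fold changes were 0.92 ± 0.03 and 0.98 ± 0.03 (adjusted p = 1.38e-22 and 2.54e-23, edgeR). The corpse libraries did not overlap those of macrophages alone, which spanned 268 to 273 CPM.

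Manf, a secreted ER stress-induced factor, was at 42.5, 43.7, 42.7 and 45.3 CPM, then at 78.4, 73.8, 74.4 and 77.8 with control corpses and 74.2, 74.1, 71.9 and 77.1 with STC1OE corpses, log2 fold changes of 0.81 ± 0.03 and 0.77 ± 0.03. Hsp90b1, the ER form of HSP90 (GRP94), was at 317, 310, 303 and 282 CPM, 526, 509, 494 and 506 with control corpses and 512, 499, 522 and 510 with STC1OE corpses, log2 fold changes of 0.75 ± 0.03 in both. The libraries with and without corpses were separate for both genes, and 15.7% of the exonic length of Hsp90b1 overlaps other annotated genes.

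Hspa5 itself, the gene of BiP (chromosome 2, 34771970 to 34777547), rose from 799 ± 21.8 CPM to 1267 ± 18.7 with control corpses and 1245 ± 23.4 with STC1OE corpses (SD, n = 4), log2 fold changes of 0.66 ± 0.02 and 0.64 ± 0.02. Creld2, an ER stress-induced secreted protein, rose by 1.64-fold and 1.63-fold, and the BiP cochaperones Dnajb11 (1.48-fold and 1.57-fold), Dnajc3 (1.41-fold and 1.40-fold) and Dnajb9 (1.41-fold and 1.42-fold) rose less. Uggt1, which returns misfolded glycoproteins to the folding cycle, rose by 1.19-fold and 1.24-fold. Dnajc10, a disulphide reductase that serves degradation, rose least, from 60.9 ± 1.05 CPM to 66.3 ± 1.53 and 65.1 ± 1.35. Its calls were lost in replicates 3 and 4 alone (adjusted p = 0.0578 and 0.101, edgeR), and the STC1OE call also in replicates 1 and 2 alone (0.0875).

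Foldases, which form and rearrange disulphide bonds or isomerise prolines, rose in 7 of 8 cases with each kind of corpse, with median log2 fold changes of 0.61 and 0.60. Pdia6, a disulphide isomerase (chromosome 12, 17266545 to 17284770), was at 180, 179, 184 and 180 CPM in macrophages alone, 352, 348, 346 and 349 with control corpses and 353, 345, 346 and 338 with STC1OE corpses. The log2 fold changes were 0.95 ± 0.02 and 0.94 ± 0.02 (adjusted p = 2.98e-24 and 3.72e-24, edgeR), and the libraries with and without corpses lay far apart.

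P4hb, the founding disulphide isomerase (chromosome 11, 120560298 to 120573253), was at 403, 402, 397 and 413 CPM in macrophages alone. It was at 700, 700, 706 and 716 with control corpses and at 750, 745, 739 and 768 with STC1OE corpses, so that all 3 groups were separate. The log2 fold changes over macrophages alone were 0.81 ± 0.02 and 0.89 ± 0.02.

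Pdia4, with several thioredoxin-like domains, was at 101, 99.9, 92.8 and 91.8 CPM, at 168, 164, 156.2 and 164 with control corpses and at 165, 154.7, 171 and 173 with STC1OE corpses, log2 fold changes of 0.76 ± 0.04 and 0.79 ± 0.04. Txndc11, which works with the EDEM mannosidases, was at 31.8, 37.0, 33.7 and 36.1 CPM, at 55.2, 53.6, 55.4 and 52.3 with control corpses and at 53.2, 54.2, 52.9 and 54.8 with STC1OE corpses, log2 fold changes of 0.64 ± 0.04 and 0.63 ± 0.04. Neither gene's libraries overlapped between macrophages alone and the corpse groups.

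The cyclophilin Ppib rose by 1.499-fold and 1.48-fold, the disulphide isomerase Txndc5 by 1.38-fold and 1.45-fold and Erp44, which retains client proteins at the ER-Golgi border, by 1.23-fold and 1.29-fold. Ppib shares 24.96% of its exonic length with Snx22 on the other strand, and Txndc5 11.9% with other genes, so reads of the partners may be lost or mixed in. Reads that match near-identical copies elsewhere in the genome may have been dropped in counting, so the levels of Ppib, and of Sec61b below, are uncertain. Fkbp2, a prolyl isomerase, was not called. Its libraries were at 22.2, 26.4, 20.3 and 17.0 CPM in macrophages alone, 28.8, 22.0, 20.7 and 21.9 with control corpses and 25.2, 22.1, 32.9 and 34.8 with STC1OE corpses. With STC1OE corpses its log2 fold change over macrophages alone was −0.04 in replicates 1 and 2 (adjusted p = 0.901, edgeR) and 0.86 in replicates 3 and 4 (4.05e-15).

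Genes of the translocon and signal peptidase, through which new proteins enter the ER and lose their signal peptides, were all called higher: 6 of 6 in both comparisons, with log2 fold changes of 0.38 to 0.66 and 0.36 to 0.70. Sec61a1, the channel itself (chromosome 6, 88503579 to 88518905), was at 118, 119, 120 and 124 CPM in macrophages alone, 192, 187, 190 and 191 with control corpses and 196, 195, 192 and 198 with STC1OE corpses, log2 fold changes of 0.66 ± 0.02 and 0.70 ± 0.02. It was the 1 gene of this group above 1.5-fold, and its corpse libraries all lay above those without corpses.

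Spcs2, a signal peptidase subunit, was at 74.2, 70.5, 68.3 and 70.1 CPM, at 105, 102, 102 and 104 with control corpses and at 103, 101, 102 and 109 with STC1OE corpses. Ssr1, a subunit of the TRAP complex beside the channel, was at 160, 153.4, 153.9 and 159 CPM, at 226, 215, 221 and 221, and at 228, 225, 223 and 226. Sec61b, the small beta subunit of the channel, was at 22.9, 23.4, 20.99 and 21.9 CPM, at 31.6, 28.9, 31.6 and 30.9, and at 32.3, 29.9, 33.7 and 33.6. None of the 3 genes overlapped between macrophages alone and corpse libraries, and their log2 fold changes were 0.55 and 0.56 (Spcs2), 0.50 and 0.53 (Ssr1) and 0.47 and 0.54 (Sec61b), with SE of 0.02 to 0.05. Ssr3, another TRAP subunit, rose by 1.30-fold in both comparisons, and Sec11c, a catalytic subunit of the signal peptidase, by 1.30-fold and 1.29-fold.

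**Figure D2:**
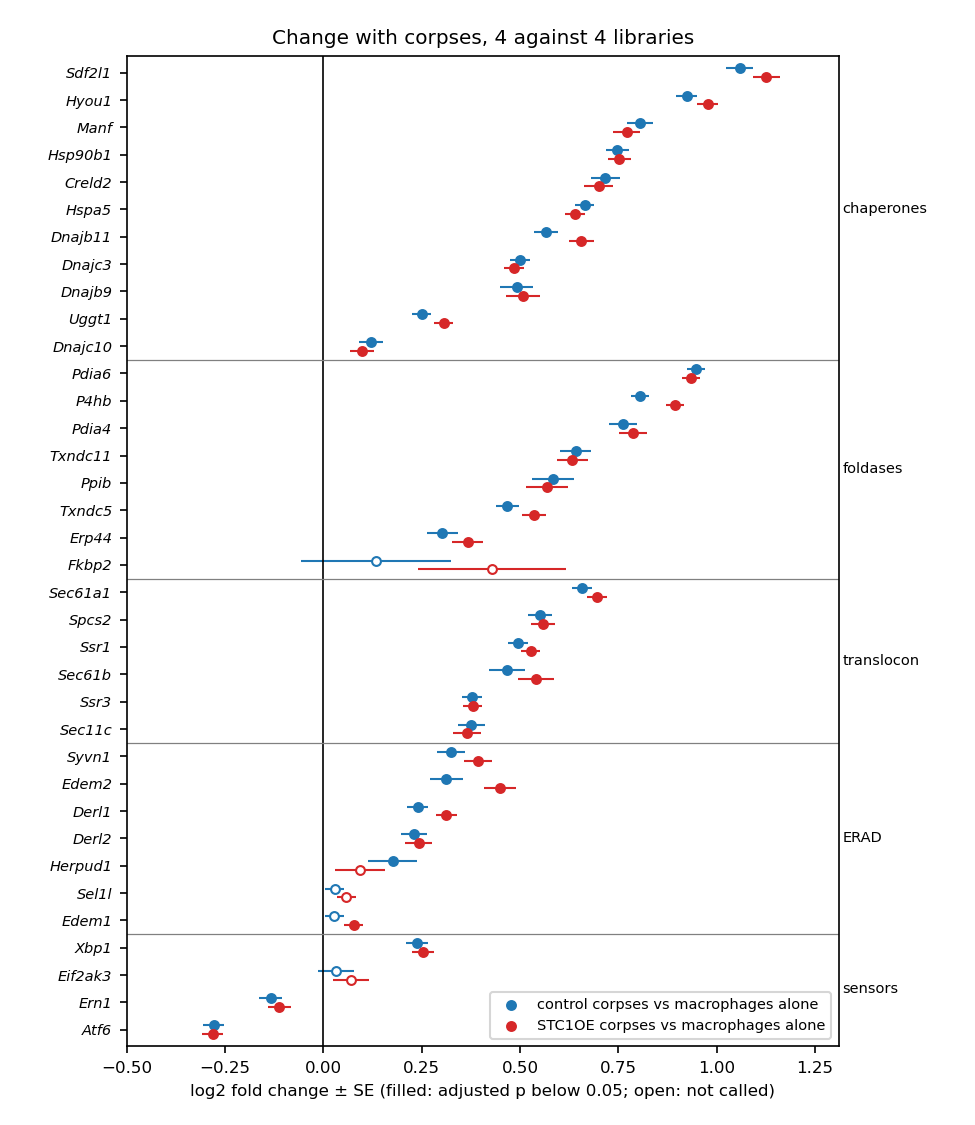
Points give each member's log2 fold change over macrophages alone with its SE, in blue for control and in red for STC1OE corpses, grouped by role, with filled points where the gene was called. Chaperones, foldases and translocon genes run from 0.10 to 1.13, ERAD genes reach at most 0.45, and Ern1 and Atf6 lie left of 0.

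Of the ERAD genes, 5 of 7 were called higher and none lower with each kind of corpse, with medians of 0.23 and 0.24 and none above 1.5-fold. Edem2, which trims mannose to mark glycoproteins for degradation, was at 59.1, 57.5, 60.7 and 60.7 CPM in macrophages alone, 67.1, 78.7, 73.0 and 77.5 with control corpses and 76.4, 82.2, 83.6 and 83.0 with STC1OE corpses, log2 fold changes of 0.31 ± 0.04 and 0.45 ± 0.04. The ubiquitin ligase Syvn1 (HRD1) was at 74.4, 78.0, 76.1 and 72.4 CPM, at 96.3, 92.5, 91.2 and 96.3 with control corpses and at 92.6, 94.5, 102 and 105 with STC1OE corpses, log2 fold changes of 0.32 ± 0.04 and 0.39 ± 0.04. Both genes were above macrophages alone in all 8 corpse libraries.

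The derlins, which form part of the channel back to the cytosol, rose by similar amounts. Derl1 was at 104, 103, 105 and 111 CPM, at 127, 125, 123 and 125 with control corpses and at 129, 131, 133 and 134 with STC1OE corpses. Derl2 was at 48.5, 48.8, 48.6 and 48.6 CPM, at 54.1, 56.5, 59.7 and 57.9, and at 59.0, 58.0, 56.8 and 56.4. Corpse libraries of both were separate from macrophages alone, with log2 fold changes of 0.24 ± 0.03 and 0.31 ± 0.03 for Derl1 and 0.23 ± 0.03 and 0.24 ± 0.03 for Derl2.

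Sel1l, the adaptor of Syvn1, was not called in either comparison, at 241 ± 2.70, 246 ± 4.95 and 251 ± 4.42 CPM (SD, n = 4). With STC1OE corpses its adjusted p was 0.0525 (edgeR), and it fell below the threshold in 11 of 21 alternatives. Edem1, a relative of Edem2, was called only with STC1OE corpses, at 339 ± 4.64 CPM against 321 ± 4.36 in macrophages alone (adjusted p = 0.00974, edgeR), and was at 328 ± 8.91 CPM with control corpses. The STC1OE call was lost in replicates 1 and 2 alone (adjusted p = 0.0973, edgeR). Herpud1, a scaffold of the degradation complex, was called only with control corpses, at 17.7 ± 0.939 against 15.6 ± 1.05 CPM (adjusted p = 0.0254, edgeR). That call was lost without macrophages alone replicate 1 (adjusted p = 0.0583, edgeR) or 2 (0.104), or control corpses replicate 2 (0.0510) or 4 (0.0800), and in replicates 1 and 2 alone (0.0810) and 3 and 4 alone (0.161). Neither gene was called between the corpse groups, so the 2 corpse groups were not shown to differ in them.

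The sensors were divided. Xbp1 rose, Atf6 and Ern1 fell, and Eif2ak3 was not called, with either kind of corpse. Atf6 (chromosome 1, 170704674 to 170867771) was at 204, 194, 198 and 204 CPM in macrophages alone, 166, 163, 167 and 162 with control corpses and 169, 161, 162 and 166 with STC1OE corpses. All 8 corpse libraries lay below all 4 without corpses, and the log2 fold changes were −0.28 ± 0.03 in both comparisons (adjusted p = 2.01e-10 and 1.53e-10, edgeR).

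Ern1, the gene of IRE1 (chromosome 11, 106394650 to 106487852), was at 79.6, 84.8, 85.2 and 82.4 CPM in macrophages alone, 76.3, 77.2, 74.95 and 74.3 with control corpses and 78.3, 75.9, 76.0 and 77.0 with STC1OE corpses. The corpse libraries were again all lower, by a smaller margin, with log2 fold changes of −0.13 ± 0.03 and −0.11 ± 0.03 (adjusted p = 0.000407 and 0.00245, edgeR). Both calls were lost in replicates 1 and 2 alone (adjusted p = 0.157 and 0.197, edgeR).

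Xbp1, the transcription factor gene whose mRNA IRE1 splices (chromosome 11, 5520659 to 5525893), was at 109, 110, 106 and 102 CPM in macrophages alone, 126, 126, 127 and 125 with control corpses and 124, 125, 129 and 131 with STC1OE corpses. Its corpse libraries were all above those without, with log2 fold changes of 0.24 ± 0.03 and 0.25 ± 0.03 (adjusted p = 2.89e-08 and 8.39e-09, edgeR). Counts per gene do not separate spliced from unspliced Xbp1 mRNA, nor do they measure cleavage of ATF6 or phosphorylation of PERK.

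Eif2ak3, the gene of PERK (chromosome 6, 70844515 to 70905245), was at 26.4, 26.2, 27.5 and 28.0 CPM in macrophages alone, 25.3, 28.3, 30.0 and 27.2 with control corpses and 28.8, 28.6, 27.6 and 28.7 with STC1OE corpses. The groups overlapped, with log2 fold changes of 0.03 ± 0.05 and 0.07 ± 0.05 and 95% intervals of −0.06 to 0.12 and −0.02 to 0.16. Against the 1.2-fold threshold none of the 4 sensors was called.

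**Figure D3:**
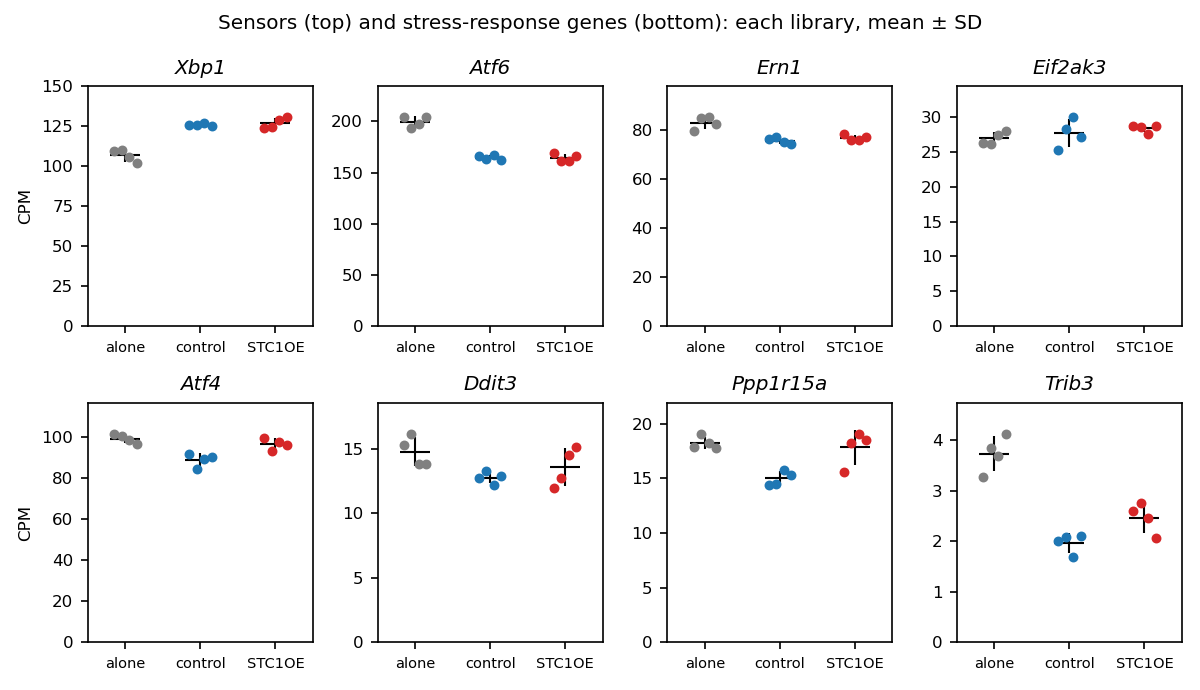
Points are the CPM of each library by group, with the mean as a line and the SD as a bar, for the 4 sensors above and for Atf4, Ddit3, Ppp1r15a and Trib3 below. Atf6 and Ern1 are lower and Xbp1 higher in all corpse libraries, and Atf4 and Ppp1r15a are lowest with control corpses.

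Per kilobase of exonic sequence annotated for the gene, which allows levels of genes to be compared, the order in macrophages alone began with Hspa5 (189 CPM per kb), P4hb (141), Hsp90b1 (75.2) and Sdf2l1 (53.4). With control corpses the same 4 genes led, at 299.5, 247, 126 and 111 CPM per kb, and with STC1OE corpses they were at 294.5, 262, 127 and 117. The sensors were lower, at 32.9 (Xbp1), 21.6 (Atf6), 10.2 (Ern1) and 4.49 (Eif2ak3) CPM per kb in macrophages alone. The lowest level was that of Txndc11, at 3.92 CPM per kb in macrophages alone. Exonic length sums all annotated exons, so genes with rare long exons appear lower than their main transcript.

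The members with the exact ERSE were called higher in 6 of 6 cases in both comparisons with macrophages alone, with log2 fold changes of 0.32 to 0.95 and 0.39 to 0.94 and medians of 0.69 and 0.67. Of the 24 members with a window and without the element, 19 were called higher and 1 lower in each comparison, with medians of 0.35 and 0.44. Among the 11 other tested genes with the element, 5 were called higher and 1 lower in each comparison, with medians of 0.23 in both. Over all genes 19.7% and 21.4% were called higher and 20.5% and 22.4% lower. The 11 are not all unrelated to the ER: they include Calr and Canx, excluded from the list by its rule, and the derlin gene Derl3. Their log2 fold changes ran from −0.30 to 1.04 with control and from −0.43 to 1.165 with STC1OE corpses, with Calr highest in both. The members with ERSE-II were Dnajb11, called higher in both comparisons, and Herpud1, called only with control corpses. Both members with the XBP1 element, Txndc11 and Txndc5, were called higher. With 1 mismatch allowed the medians of members with and without an ERSE were 0.41 and 0.47 with control corpses and 0.46 and 0.52 with STC1OE corpses, so the order seen with the exact element did not hold with the looser one.

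The corpse groups, which differ in the overexpression of STC1, were close to each other in these genes. They also differed in the 11 melanocyte markers, which summed to a mean of 12.07 CPM with control and 4.135 CPM with STC1OE corpses. The part of this difference in the results was not tested. Only P4hb was called, higher with STC1OE corpses, where 5.44% of all genes were called, 3.33% higher and 2.12% lower. Of these calls 61.1% were higher, and with DESeq2 74.4%. Its level of 750.5 ± 12.8 CPM exceeded the 705.6 ± 7.40 CPM with control corpses by 6.37% (log2 fold change 0.09 ± 0.02, adjusted p = 0.0179, edgeR's quasi-likelihood test with Benjamini-Hochberg adjustment), and every STC1OE library was above every control corpse library. The call was lost without control corpses replicate 3 (adjusted p = 0.0557, edgeR) or STC1OE corpses replicate 4 (0.0544) in replicates 1 and 2 alone (0.519), and with all libraries but no filter on low counts (0.0587). Of all 36 members, 4 were above in all STC1OE libraries (P4hb, Sdf2l1, Uggt1 and Derl1) and 0 below, where 5.86% and 4.85% of all genes were.

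The other 35 members were not called, and the data bound how far they could differ. Leaving out Fkbp2, the 95% intervals of the 34 differences lay within −0.21 and 0.22 on the log2 scale, or −13.7% and 16.5%. For Hspa5 the interval was −5.01% to 1.78%, for Hsp90b1 −3.64% to 4.57% and for Pdia6 −3.97% to 2.42%. Those of Hyou1, Dnajb11, Sdf2l1, Uggt1, Txndc5, Derl1, Edem1 and Edem2 left out 0, all on the side of higher with STC1OE corpses. Of the 36 fitted differences 25 were positive. Their median was 0.02 on the log2 scale, and over all tested genes it was −0.006. Edem2 was nearest to a call, 9.91% higher with STC1OE corpses (interval 3.65% to 16.5%, adjusted p = 0.0517, edgeR), and it was called in 8 of 21 alternatives. The interval of Fkbp2 was wide, at −8.08% to 63.6%.

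The pairs of replicates gave different answers between the corpse groups. In replicates 3 and 4 alone 8 members were called higher, Dnajb11, Derl1, Syvn1, P4hb, Pdia4, Erp44, Edem2 and Fkbp2, where 11.6% of all genes were called. In replicates 1 and 2 alone 0 were called, where 0.2% of all genes were. With DESeq2 on all libraries 3 were called higher, Derl1, P4hb and Edem2 (9.34% of the 11060 genes to which it gave an adjusted p), with RLE scaling 2, P4hb and Edem2 (6.08% of all genes), and against 1.2-fold 0 (0.0244%). In the 4 libraries of STC1OE corpses Erp44 was at 57.8, 61.2, 63.4 and 65.5 CPM and Dnajb11 at 161, 153.2, 166 and 170, with both of replicates 3 and 4 above both of replicates 1 and 2. The summed level of the 36 members was 1.02 times that with control corpses by TMM-scaled CPM and 0.985 times without the TMM factors, so the direction of the sum depended on scaling. Reads not aligned made up 10.8% to 11.5% in the control corpse libraries. In STC1OE corpses they made up 14.6% and 14.4% in replicates 1 and 2 and 17.8% and 17.5% in replicates 3 and 4. The TMM factors were 1.00 to 1.01, 0.986 and 0.989, and 0.963 and 0.951 in the same order. The part of these differences in the calls was not tested.

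**Figure D4:**
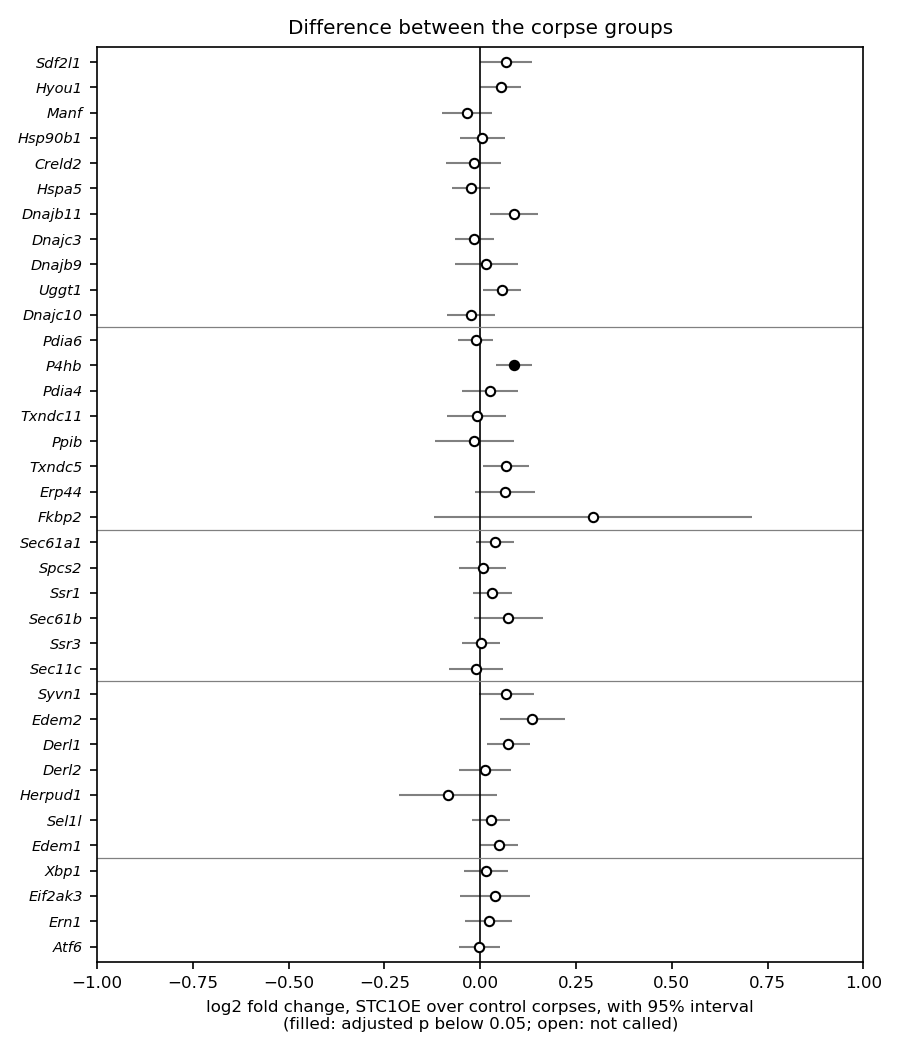
Points give the log2 fold change of STC1OE over control corpses for each member with its 95% interval, in the same order of roles. P4hb is the filled point, and apart from that of Fkbp2 the intervals reach −0.21 and 0.22 at their widest.

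Other genes of the same pathway were read from 4 further lists, none of which shares a gene with the 36. These lists too were chosen with earlier results of these data known. Over all tested genes 19.7% rose and 20.5% fell with control corpses, and 21.4% rose and 22.4% fell with STC1OE corpses. Of 20 other translocation and glycosylation factors, 17 rose and 1 fell with each kind of corpse. They include the oligosaccharyltransferase, which adds glycans to entering proteins: its subunit Ddost rose from 102 to 162 CPM with control corpses and to 174 with STC1OE corpses (log2 fold changes 0.66 ± 0.03 and 0.76 ± 0.03), and Rpn1 and Ostc rose by 1.49-fold and 1.47-fold with control corpses. Sec62, a channel partner that also serves ER-phagy, fell, by 0.21 and 0.30 on the log2 scale. Of 17 other folding factors, 7 rose and 4 fell with control corpses and 9 rose and 3 fell with STC1OE corpses. The shares that fell, 4 of 17 and 3 of 17, were near those over all genes. Pdia5, a disulphide isomerase, rose from 2.35 to 5.94 and 5.98 CPM, log2 fold changes of 1.34 ± 0.10 and 1.35 ± 0.10, and Sdf2, the paralogue of Sdf2l1, fell by 0.30 and 0.29. Of 14 other ERAD factors, 6 and 7 rose and none fell, with Os9, a lectin of the degradation complex, at log2 fold changes of 0.30 ± 0.04 and 0.44 ± 0.04.

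The last list, of 17 genes, mixed the PERK branch and stress outputs with other regulators such as Mbtps1 and Atf6b. Of these 17 genes, 4 rose and 10 fell with control corpses, where 19.7% of all genes rose and 20.5% fell. With STC1OE corpses 4 rose and 6 fell, where 21.4% rose and 22.4% fell. The share that rose, 4 of 17, was near that over all genes. Atf4, Ddit3, Ppp1r15a, Atf3, Trib3 and Chac1, of the PERK branch, were all called lower with control corpses. Of these only Atf3 and Trib3 were called lower with STC1OE corpses. Ppp1r15b was called in neither comparison, and Chac1 was below 1 CPM. The genes that rose, the same 4 in both comparisons, were Creb3l2, Serp1, Wfs1 and Atf6b. Bbc3, a proapoptotic gene, was at 12.4, 14.7, 15.5 and 14.8 CPM in macrophages alone, 7.16, 7.91, 7.93 and 7.34 with control corpses and 8.49, 8.46, 8.01 and 8.98 with STC1OE corpses, and fell by 0.92 and 0.76 on the log2 scale. Trib3, a pseudokinase induced through ATF4, was at 3.28, 3.84, 3.68 and 4.13 CPM, at 2.01, 2.08, 1.68 and 2.10 and at 2.59, 2.76, 2.45 and 2.07, and fell by 0.93 and 0.60. The proapoptotic Bcl2l11 fell by 0.51 and 0.50, with all corpse libraries of the 3 genes below those of macrophages alone. The risers included Creb3l2, a transmembrane transcription factor (log2 fold changes 0.55 ± 0.05 and 0.63 ± 0.05), and Serp1, a protector of the translocon (0.45 ± 0.02 and 0.50 ± 0.02).

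Atf4, the transcription factor of the PERK branch, was at 101, 100, 98.5 and 96.6 CPM in macrophages alone, 91.8, 84.3, 89.1 and 90.3 with control corpses and 99.6, 93.2, 97.5 and 96.1 with STC1OE corpses. It fell with control corpses (log2 fold change −0.16 ± 0.03, adjusted p = 7.64e-05, edgeR), was not called with STC1OE corpses (0.334), and was higher with STC1OE than with control corpses (0.12 ± 0.03, 0.0155). Ppp1r15a, the phosphatase subunit that ends the PERK signal, fell by 0.28 with control corpses and was higher with STC1OE than with control corpses by 0.25 ± 0.06 (adjusted p = 0.00770, edgeR), although the libraries of the corpse groups overlapped. In all, 2 of these 17 genes, 1 of 17 other folding factors (Ero1a, log2 fold change 0.15 ± 0.04), 1 of 14 other ERAD factors (Os9, 0.14 ± 0.04) and 2 of 20 translocation and glycosylation factors (Ddost, 0.10 ± 0.03, and Dad1, 0.13 ± 0.04) were called higher with STC1OE than with control corpses and none lower, where 3.33% of all genes were called higher and 2.12% lower. A single call in 14 or 17 genes lies near that share. All 6 calls were lost in replicates 1 and 2 alone, those of Ero1a and Ddost also in replicates 3 and 4 alone (adjusted p = 0.0727 and 0.0679, edgeR), and that of Dad1 in a fit of only the groups compared (0.0514). Each was also lost when 1 library was left out. For Ero1a this was control corpses replicate 3 (adjusted p = 0.0530, edgeR), for Ddost control corpses replicate 1 (0.0625), for Ppp1r15a STC1OE corpses replicate 3 (0.0505) and for Atf4 control corpses replicate 2 (0.0648) or STC1OE corpses replicate 3 (0.0564). For Dad1 it was any of 5 libraries (0.0598 to 0.138) and for Os9 any of 6 (0.0616 to 0.108).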

How the data were processed

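The authors deposited 1 table of raw read counts per gene for each of 12 libraries. The tools DESeq2, HTSeq and HISAT2 and the builds GRCm38 and mm10 are named, per the submitters' processing notes. Versions, annotation release and the strand setting of counting are not given in the sources used here. Reads of overlapping and antisense genes therefore cannot be separated, and genes with near-identical copies may share reads. Library sizes and tests did not use the lines that name no gene, which held 10.6% to 14.7% (no feature), 5.53% to 6.62% (ambiguous), 5.17% to 5.85% (low quality), 10.8% to 17.8% (not aligned) and 5.74% to 7.03% (not unique) of all reads. The share not aligned was 11.4% to 14.0% in macrophages alone, 10.8% to 11.5% with control corpses and 14.4% to 17.8% with STC1OE corpses.

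Identifiers without version were matched to GENCODE symbols of GRCm38, which gave a symbol to 54809 of 55604 genes. Groups and replicate numbers came from the sample titles. The counts were fitted with edgeR 4.0.16 under R 4.3.3. Genes passed filterByExpr (at least 10 counts, total of 15), scaling was by TMM, and a robust quasi-likelihood fit of 3 group means used all 12 libraries, with two-sided tests and Benjamini-Hochberg adjustment over 16406 genes at a threshold of 0.05. CPM were computed from these counts and are TMM-scaled. The fit was run on simulated counts with 200 genes changed in each comparison. Of 1.2-fold changes 37.3% to 40.3% were called in the right direction, of 1.5-fold changes 67.2% to 73.1% and of 2-fold changes 77.3% to 90.9%. Among unchanged genes 7 to 13 were called. The changed genes were drawn from all levels and were far fewer than those called against macrophages alone. The rates therefore do not give the power for the members. Promoter sequences are those of RefSeq for GRCm38.p6, searched on both strands.

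Values per library were given for the sensors, for up to 4 called members of each other role with the largest log2 fold change, for members called between the corpse groups and for members called lower. From each other list up to 3 called genes per direction with at least 2 CPM could be named. Ddit3, drawn in a figure, and Fkbp2, Dnajb11 and Erp44, whose libraries are given, were picked with their values in view. So were Atf3, Chac1, Ppp1r15b, Mbtps1, Calr, Canx and Derl3, which are named without values per library. The members and lists were chosen with earlier results of these data known. Same-numbered libraries of different groups correlated at −0.262 to 0.209 in their deviations over 9792 genes, with 6 of 12 pairs over 0.1, so numbers were not used to pair libraries. As alternatives, libraries were scaled by RLE or by the upper quartile, genes were left unfiltered, DESeq2 1.42.0 replaced edgeR, the fit was limited to the groups compared, to replicates 1 and 2 or to replicates 3 and 4, a replicate block was added, differences were tested against 1.2-fold, and each library was left out in turn.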

Additional observations from a re-analysis of the deposited data

Results flagged for a closer look

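In 3 of the 108 sets of 4 libraries (36 members in 3 groups), 1 library lay far from the others by the 95% limit of Dixon's test for 4 values, where chance gives about 1 in 20. Fkbp2 was at 28.8 CPM in control corpses replicate 1, with the nearest library at 22.0 CPM. Herpud1 was at 19.3 CPM in STC1OE corpses replicate 2, with the nearest at 16.1 CPM. Eif2ak3 was at 27.6 CPM in STC1OE corpses replicate 3, below the nearest at 28.6 CPM. None of these 3 genes was called with STC1OE corpses or between the corpse groups in the fit of all 12 libraries.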

How the results depend on the processing

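Of 32 members called with control corpses, 31 were still called whichever single library was left out and 21 in all 21 alternatives. With STC1OE corpses 32 and 24 of 32 did, and between the corpse groups the 1 call was kept in neither sense. With 1 library left out, 31 to 32 members were called with control corpses (29 to 30 higher, 2 lower), 32 to 33 with STC1OE corpses (30 to 31 higher, 2 lower) and 0 to 2 between the corpse groups (0 to 2 higher, 0 lower). Over all genes the numbers called were 6016 to 6749, 6646 to 7307 and 474 to 1200, against 6582, 7186 and 893 with all libraries. The last fell to 561 without control corpses replicate 1, 529 without replicate 3, 474 without STC1OE corpses replicate 3 and 486 without replicate 4. In replicates 1 and 2 alone, 4090, 4650 and 33 genes were called, with 1 member lower than macrophages alone in each comparison and 0 members called between the corpse groups. In replicates 3 and 4 alone 1925 genes and 8 members, all higher, were called between the corpse groups. Against 1.2-fold, 1687, 2119 and 4 genes were called, with 21 members called with control corpses, 0 lower with either corpse and 0 between the corpse groups. The test against 1.2-fold has a stricter null. The cause of the differing counts in the pairs of replicates was not tested. Between the corpse groups 2 members were called with RLE scaling, 3 with DESeq2 and 2 with a replicate block. The block gave 6712, 7300 and 1089 genes and 32 and 33 members in the comparisons with macrophages alone. Same-numbered libraries correlated best with their own number in 3 of 12 cases. The share of higher calls between the corpse groups was 61.1% with TMM, 53.1% with upper quartile, 68.2% with RLE and 74.4% with DESeq2 scaling.

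Signs reversed for uncalled values only. In replicates 1 and 2 alone the log2 fold change of Fkbp2 was −0.0397 with STC1OE corpses over macrophages alone and −0.11 between the corpse groups, and that of Herpud1 was 0.0022 between them. In replicates 3 and 4 alone Herpud1 was at −0.0433 with STC1OE corpses. The cause was not tested. Of the 35 members not called between the corpse groups, 18 changed sign in some alternative. The lowest count of any member in any library was 409, and 4 libraries per group limit the precision of variable genes such as Fkbp2.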
